A study of Xenopus tropicalis with 2 samples.

Results

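Isolated intergenic peaks are sites of thyroid hormone receptor (TR) ChIP signal that lie outside every gene region and stand alone. They were the peaks that the deposited list pairs with no gene, neither in a gene body nor in the 10 kb upstream of one, and whose summit had no other such peak within 50 kb on the same sequence. Of the 6302 peaks in the list, 1088 were intergenic in this sense, and 655 of these were isolated (60.2%, exact 95% binomial interval 57.2 to 63.1%). They made up 10.4% of all peaks (9.65 to 11.2%). The other 433 intergenic peaks are called clustered below.

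The peaks came from 1 TR ChIP library, made with a polyclonal antiserum to Xenopus TRs, and were called over a background. The other library was 1 input, sequenced with no antibody. Both came from tadpoles of Xenopus tropicalis, wild type in genotype, at stage 62 of the Nieuwkoop and Faber (NF) series, reared at 25 °C, and from the piece of brain with the preoptic area, hypothalamus and thalamus. Chromatin was fixed with formaldehyde and sonicated, and 5 µg went into a reaction. There were no replicates, so no comparison below has a test across samples and no p-value is given. RNA was not measured in these samples, and the tissue is taken from the labels.

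Thyroid hormone (TH) controls amphibian metamorphosis, and the tadpole brain is remodelled as the hormone peaks. TRs are nuclear receptors that usually sit on DNA as heterodimers with retinoid X receptors; without hormone they recruit corepressors, and with hormone they exchange them for coactivators. Nuclear receptors bind promoters and also distal elements, which can act on a gene over long distances and need not act on the nearest one.

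The isolated peaks were widely spaced but were not all far from other TR signal. For the 552 isolated peaks with another intergenic peak on their sequence, the distance to it had a median of 629 kb, with quartiles of 196 and 1296 kb and a range of 51.7 to 7811 kb. When peaks of every class were counted, 126 of the 655 (19.2%, 16.3 to 22.5%) had another peak within 50 kb. The median distance to any other peak was 99.0 kb, over the 583 isolated peaks that shared a sequence with one. The peaks just inside the limit were a pair beyond the end of mycn, a proto-oncogene of the MYC family, whose summits were 51.7 kb apart and whose folds were 3.12 and 3.24. A peak on chromosome 2 (614782 to 615006), at a fold of 3.19, was 52.3 kb from its neighbour. Just outside it were a peak on chromosome 6 with a fold of 3.68, 49.5 kb from another, and a pair between gadd45g and auh, 49.1 kb apart, with folds of 3.77 and 4.14.

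Most of the isolated peaks, 536 (81.8%, 78.7 to 84.7%), lay on the 10 assembled chromosomes, and 119 lay on 112 unplaced scaffolds. On a short scaffold isolation is easily met: 103 of the 119 had no other intergenic peak on their scaffold at all, and 21 began within 1 kb of its first base. The isolated share of intergenic peaks was 73.9% on scaffolds (66.4 to 80.5%) and 57.8% on chromosomes (54.6 to 61.0%). Among chromosomes this share lay between 46.3% (19 of 41, chromosome 10) and 64.5% (69 of 107, chromosome 5), apart from chromosome 9. There all 30 intergenic peaks were isolated (100%, 88.4 to 100%), although isolated peaks were 8.88% of all peaks on chromosome 9, against a range of 7.22% to 11.6% over the 10 chromosomes. Chromosome 9 therefore stood apart in having no clustered peak, not in its number of isolated ones.

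Isolated peaks had folds like those of the other classes, and fewer fragments than peaks upstream of genes or at a TSS. The fold, as the authors' peak caller gave it, is ChIP over expected background at the summit. Its median was 4.06 in isolated peaks (quartiles 3.51 and 4.75, range 2.24 to 14.9), against 3.97 in clustered intergenic peaks, 3.98 in gene bodies, 4.09 upstream of a gene (10 kb) or at its end, and 4.15 close to a transcription start site (TSS, summit within 1 kb). A median of 20 ChIP fragments covered an isolated summit (quartiles 15 and 24, range 9 to 124). Clustered peaks had a median of 21, gene body peaks 20, upstream peaks 24 and TSS peaks 28. The expected background was 4.15 fragments at isolated summits, 4.80 at clustered ones, 4.30 in gene bodies, 4.93 upstream and 6.14 at TSSs. The lowest background in the list was 1.57 fragments. It was held by 19 of 655 isolated, 3 of 433 clustered and 19 of 1415 gene body peaks. Of upstream peaks 4 of 416 held it, and of TSS peaks 4 of 3383. Every listed peak passed the caller's significance cut, which asks for a higher fold where the background is lower. The parts of this cut and of the lowest value in the folds were not tested. Isolated peaks were also narrow, with a median width of 279 bp against 309 bp for clustered peaks, 295 bp in gene bodies, 329 bp upstream and 367 bp at TSSs.

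**Figure D1:**
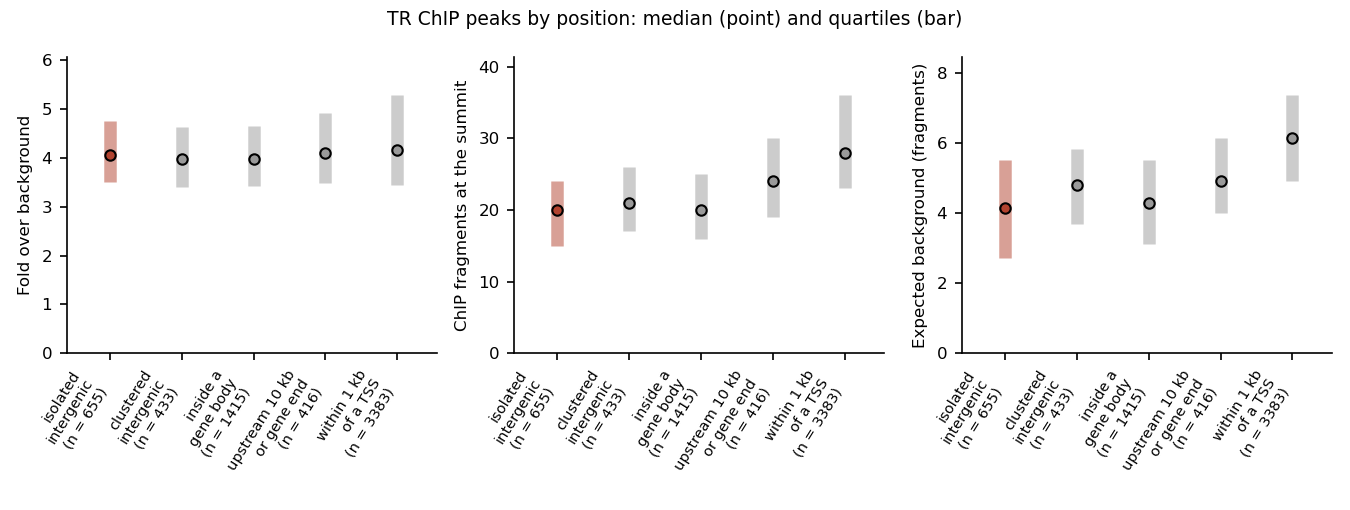
Fold over background, ChIP fragments at the summit and expected background (y axes of the 3 panels) for 5 classes of peak (x axis), with medians as points and quartiles as bars. Isolated peaks have a median fold of 4.06, beside 4.15 at TSSs, but 20 fragments beside 28.

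High folds were less frequent among isolated peaks than near a TSS. A fold of at least 5 was reached by 122 of the 655 isolated peaks (18.6%, 15.7 to 21.8%), against 24.5% of all 6302 peaks. The share was 16.2% in clustered peaks (70 of 433), 17.2% in gene bodies (244 of 1415), 23.8% upstream (99 of 416) and 29.8% within 1 kb of a TSS (1009 of 3383, 28.3 to 31.4%). The isolated share thus lay near that of clustered and gene body peaks, and its interval did not reach the TSS share. A fold of at least 10 was reached by 8 isolated peaks (1.22%), against 1.82% of all peaks. High folds were more frequent on scaffolds: 38 of 119 scaffold peaks had a fold of at least 5 (31.9%, 23.7 to 41.1%), against 84 of 536 on chromosomes (15.7%, 12.7 to 19.0%). Of the 8 with a fold of at least 10, 5 were on scaffolds.

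The highest fold of an isolated peak was 14.9 (95% Poisson interval 12.4 to 17.8), from 124 fragments over a background of 7.37. It lay on scaffold KV460680.1 (2398 to 2891), 71.1 kb before the start of cfap58, a gene of the cilium and flagellum. The next peak lay on chromosome 8 (117084060 to 117084548), at a fold of 14.2 (10.9 to 18.4) and 57 fragments over 3.07. Its nearest gene was nit1, an amidase of the nitrilase family, whose end faced it at 165 kb. On the other side of the peak the nearest gene of the list, cfap45, was 1853 kb away. This was the chromosomal isolated peak with the highest fold and had no other peak of any class within 171 kb.

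Of the other 3 scaffold peaks among the first 5, none had a gene of the list within 50 kb. One on KV460378.1 (443770 to 444115) had a fold of 13.6 (9.56 to 18.9) from 34 fragments over a background of 1.57, the lowest in the list. It was 64.7 kb from the end of a gene provisionally named tm4sf5 and 351 kb from the end of cops6, a subunit of the COP9 signalosome. The peaks on KV461360.1 (760 to 1155) and KV462150.1 (5442 to 5846) had folds of 12.2 (9.24 to 15.7) and 11.9 (8.55 to 16.0), and neither scaffold holds a gene of the list. A sixth, on KV460425.1 (8092 to 8774), had a fold of 11.2 (8.78 to 14.0) and was 132 kb before the start of sdhc. This gene encodes a membrane subunit of succinate dehydrogenase. The reference order places sdhc on chromosome 8 between cfap45 and nit1, the neighbours of the second-highest peak, though with a different spacing. Whether these peaks lie in the same region was not tested.

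Among the chromosomal peaks with the highest folds, distances to a gene varied widely. On chromosome 7 (99016531 to 99017215), a peak with a fold of 10.5 (8.44 to 12.9) and 87 fragments lay 8.45 kb past the end of erf, an ETS-family transcriptional repressor, and 11.9 kb from the start of the kinase gene gsk3a. Another peak lay 11.6 kb away, so this one was isolated among intergenic peaks only. On chromosome 10 (96694 to 97166), a peak with a fold of 10.2 (7.62 to 13.5) lay 18.4 kb from the end of pmepa1, a membrane protein that restrains TGF-β signalling. Chromosome 1 held the widest isolated peak, 1384 bp (134958624 to 134960007), at a fold of 9.67 (7.70 to 12) and 80 fragments. Its neighbours in the list were stard4, a sterol transfer protein, with its start at 152 kb, and reep5, which shapes the endoplasmic reticulum, with its end at 237 kb. In the reference gene order 3 coding genes stood between them: srp19, apc, a scaffold protein of β-catenin degradation, and epb41l4a.

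A second peak on chromosome 1 (168123465 to 168124002) had a fold of 8.82 (6.72 to 11.4) and lay between the starts of ssbp2, a partner of LIM-domain-binding proteins, at 94.0 kb and atg10, an autophagy enzyme, at 30.9 kb. These genes were adjacent in the reference order. A peak on chromosome 8 (56283447 to 56284131) had a fold of 8.61 (6.73 to 10.9), with the end of the potassium channel gene kcnk6 at 152 kb. The last of the 12 highest, on chromosome 6 (134797499 to 134797836), had a fold of 8.57 (5.45 to 12.9). It rested on 21 fragments over a background of 1.57, the lowest in the list. Its nearest gene was cyc1, encoding cytochrome c1, at 278 kb. The 12 folds had overlapping intervals between neighbours in rank, so their order is not firm.

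**Figure D2:**
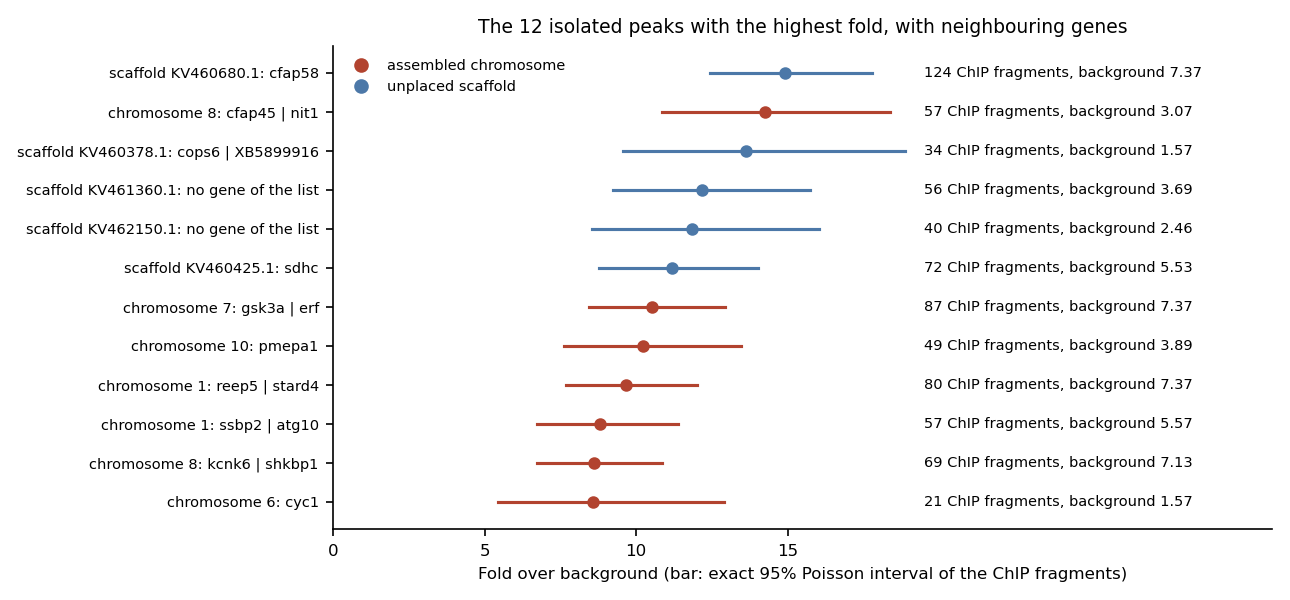
The 12 isolated peaks with the highest fold (rows, named by sequence and neighbouring genes), with fold over background on the x axis and the exact 95% Poisson interval of the ChIP fragments as a bar. Red points are on chromosomes and blue points on scaffolds; folds run from 14.9 to 8.57 and neighbouring intervals overlap.

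Width and fold did not go together in every case. After the 1384 bp peak, the widest were 1086 bp on chromosome 6 (10148683 to 10149768, fold 6.41), 904 bp on scaffold KV465707.1 (370 to 1273, fold 4.60), 897 bp on chromosome 9 (49584779 to 49585675, fold 5.33) and 880 bp on chromosome 3 (107896264 to 107897143, fold 5.18). The chromosome 6 peak lay between the ends of nom1 and ncapg2, at 495 and 514 kb, in an interval where the reference order places mnx1, a motor neuron homeobox gene. The chromosome 3 peak lay 3.10 kb past the end of ogdh, an enzyme of the citric acid cycle, and 30.2 kb before zmiz2, a coregulator of nuclear receptors.

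Most isolated peaks were far from the nearest gene that the list holds. This distance is an upper limit on the distance to a gene, since the list holds only the 5285 genes with a peak. For the 577 isolated peaks with such a gene on their sequence, the nearest gene edge was at a median of 93.2 kb (quartiles 32.3 and 236 kb, range 0.691 to 1657 kb). Clustered peaks were closer, with a median of 60.0 kb (quartiles 21.4 and 142 kb). The edge was beyond 50 kb for 378 of 577 isolated peaks (65.5%, 61.5 to 69.4%) and for 225 of 416 clustered peaks (54.1%, 49.2 to 59.0%). The remaining 78 isolated peaks, all on scaffolds, had no gene of the list on their sequence.

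The 5 chromosomal peaks farthest from a gene had folds of 3.23 to 5.40, of which 3 were above 5. A peak on chromosome 8 (40128557 to 40128900) had a fold of 5.12 (3.41 to 7.41) and was 1324 kb from the start of zdhhc9, a palmitoyltransferase gene. One on chromosome 7 (66168834 to 66169344), at a fold of 5.40, lay 1283 kb from the end of prdm10 and 1339 kb from the end of the axon guidance receptor gene robo3. Others were on chromosome 6 (42154963 to 42155273, fold 5.01), 1210 kb from twistnb, on chromosome 4 (1744002 to 1744217, fold 4.45), 1067 kb from sycp3, and on chromosome 7 (63011035 to 63011245, fold 3.23), 1062 kb from ercc1. Each of these 5 had its whole fold interval between 2.01 and 7.93. For those near twistnb and ercc1, the neighbours on either side had a different spacing in the reference gene order. The distance of 1657 kb belonged to a peak on scaffold KV460358.1 (11778 to 12160), whose fold was 5.78 (3.59 to 8.86) and whose nearest gene had no usable name.

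The median fold hardly varied with distance from a gene, while background and fragments were lower farther out. The median fold was 3.92 in the 45 isolated peaks within 10 kb, 4.05 at 10 to 50 kb (154 peaks), 4.03 at 50 to 200 kb (210), 4.10 at 200 to 500 kb (122) and 4.10 beyond 500 kb (46). Median background over the same bins was 4.54, 4.30, 3.89, 3.69 and 3.07 fragments, and median ChIP fragments were 20, 21, 19, 19 and 16.5. A fold of at least 5 was reached by 5 of 45 (11.1%), 28 of 154 (18.2%), 36 of 210 (17.1%), 18 of 122 (14.8%) and 11 of 46 (23.9%), so the end bins differed most and rest on the fewest peaks. Across the 577 peaks, which share 1 library and its depth, the rank correlation (Spearman) of distance was 0.046 with fold, −0.158 with background and −0.150 with fragments. These are descriptions across peaks, not replicates. Listed peaks all passed the caller's significance cut, which asks for a higher fold where the background is lower. The parts of this cut and of the lower background in the folds were not tested.

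Near genes the rule sets which end faces an isolated peak. Within 10 kb all 45 isolated peaks faced a gene end, since the 10 kb before each start count as a gene region. Beyond 10 kb, a start faced 244 of 532 isolated peaks (45.9%, 41.6 to 50.2%) and 185 of 362 clustered peaks (51.1%, 45.8 to 56.4%). The intervals of both classes overlap. On chromosomes, 17.4% of the length of gaps between genes had a start on each side, and 35.0% an end on each side (below). A share of 50% is therefore not the reference for these values.

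**Figure D3:**
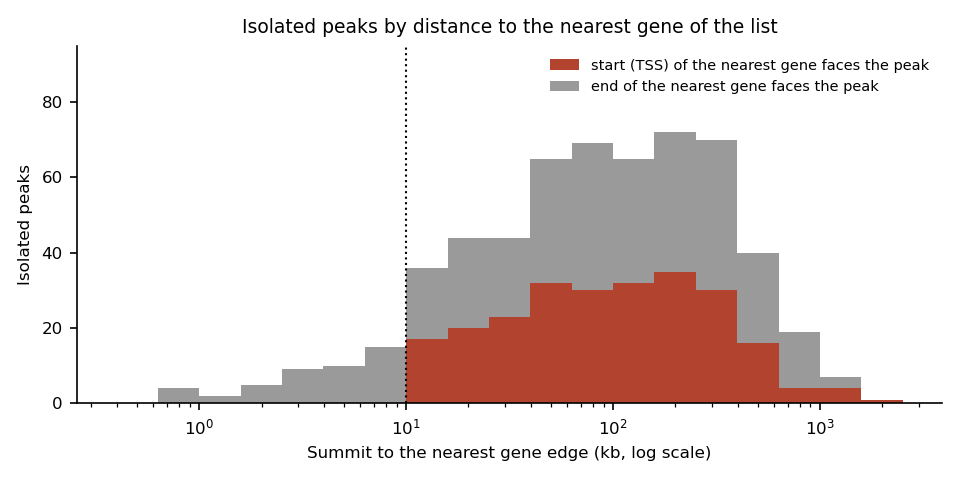
Number of isolated peaks (y axis) by distance from the summit to the nearest gene edge of the list (x axis, kb, log scale), split by whether a gene start (red) or end (grey) faces the peak, over 577 peaks. Left of the dotted line at 10 kb all 45 peaks face a gene end, and beyond it 244 of 532 face a start.

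The shares of isolated peaks in 3 kinds of gap between genes lay close to the shares of gap length. On chromosomes, 532 isolated and 391 clustered peaks lay in gaps between gene regions of the list that covered 1012 Mb. Gaps flanked by a gene start on each side held 103 isolated peaks (19.4%, 16.1 to 23.0%) and 46 clustered peaks (11.8%, 8.74 to 15.4%), and made up 17.4% of gap length. Gaps flanked by an end on each side held 179 isolated peaks (33.6%, 29.6 to 37.8%) and 93 clustered peaks (23.8%, 19.6 to 28.3%), with 35.0% of gap length. Gaps with 1 start and 1 end held 250 isolated peaks (47.0%, 42.7 to 51.3%) and 252 clustered peaks (64.5%, 59.5 to 69.2%), with 47.6% of gap length. Per Mb this was 0.586, 0.506 and 0.519 isolated peaks in gaps with both starts, both ends, and 1 of each. The gaps can hold genes that have no peak. No intergenic peak can lie in such a gene or in the 10 kb upstream of it. The gap lengths and the values per Mb therefore include sequence that the rule bars. All 3 gap shares fell inside the intervals of the isolated peaks and outside those of the clustered ones. Clustered peaks come in groups that share a gap, so their intervals are too narrow to read this as a difference. The 50 kb rule itself spaces isolated peaks out and groups clustered ones. Its part in the contrast between the classes was not tested.

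**Figure D4:**
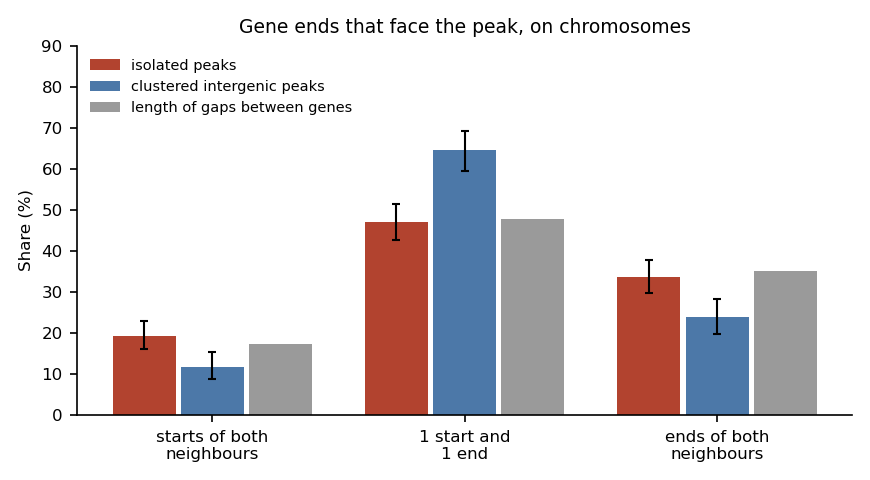
Share (y axis, %) of 532 isolated peaks (red), 391 clustered peaks (blue) and gap length (grey) in the 3 kinds of gap between genes (x axis), with exact 95% binomial intervals on the peaks. The isolated shares of 19.4%, 33.6% and 47.0% lie close to the length shares of 17.4%, 35.0% and 47.6%.

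The neighbours in the list were seldom next to each other in the reference gene order. For 408 isolated peaks, both neighbours could be found in the reference gene table on 1 chromosome with a similar spacing. They were next to each other among protein-coding genes in 54 cases (13.2%, 10.1 to 16.9%). In the median case 4 coding genes of the reference order stood between them (quartiles 1 and 8, at most 40). These counts include some genes that have an entry elsewhere in the list, such as dnttip1 and ppargc1a. A peak named below by a neighbour may therefore be nearer to another gene. For a further 59 isolated peaks the spacing of the neighbours differed from the reference. Among these were the peaks named beside nit1, erf, twistnb, ercc1, grin2b and celf4 and those before gria1. For 3, among them the mbnl1 peak, a neighbour was on another chromosome in the reference, and 185 could not be matched.

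Some intergenic intervals held several isolated peaks. The 543 isolated peaks with a gene of the list on each side fell into 450 intervals, of which 382 held 1, 50 held 2, 13 held 3, 4 held 4 and 1 held 6. The interval with 6 was the 2355 kb on chromosome 4 between znf143, a zinc finger activator, and sycp3, a structural protein of the meiotic chromosome axis. Its folds were 4.10 to 7.39, and the highest (4.65 to 11.2) rested on 20 fragments over a background of 1.84. Genes placed between by the reference order included adm, encoding the peptide hormone adrenomedullin, wee1, a cell-cycle kinase, and lrrc4c, a synaptic adhesion protein. Intervals with 4 included 2373 kb between ephb3 and agpat5 on chromosome 5 and 1214 kb between cxorf56 and fam155b on chromosome 8, where efnb1, an ephrin, was the only coding gene between.

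Intervals with 3 isolated peaks included some around developmental genes, of which irx3 and irx5 had no entry in the list. The 2106 kb between ctcf and ddx28 on chromosome 4 held peaks with folds of 3.98 to 5.06, and the reference order places the homeobox genes irx3 and irx5 in it. The 719 kb between qtrt2 and gap43, a growth cone protein, on chromosome 2 held folds of 3.19 to 4.97 and the transcription factor gene zbtb20. The 736 kb between marcks and tube1 on chromosome 5 held folds of 4.23 to 6.88 and lama4, a laminin chain. These intervals are among the 18 with 3 or more isolated peaks, and their genes were picked after the counts were seen.

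The genes beside isolated peaks were longer than the genes of the list as a whole. Of the 5285 genes of the list, 877 (16.6%) were the nearest gene on either side of an isolated peak, and 839 of these had a usable name. The 500 genes that were nearest of all to an isolated peak had a median length of 35.7 kb. The 142 nearest to a clustered peak had 25.4 kb, and all genes of the list had 19.6 kb. A peak within 1 kb of the start was present in 319 of the 500 (63.8%, 59.4 to 68.0%). The same held for 102 of 142 beside clustered peaks (71.8%, 63.7 to 79.1%) and 68.6% of all genes of the list (67.4 to 69.9%). These intervals overlap, but the 500 and the 142 genes are part of the 5285, and no test was run. Genes with 4 or more peaks of their own were 35 of the 500 (7.0%), 20 of the 142 beside clustered peaks (14.1%) and 119 of all 5285 (2.25%). The widest gap beside a gene had a median of 542 kb for the 877 neighbours, against 194 kb for all genes. A longer gene can also hold more peaks. The parts of gap width and gene length in these values were not tested.

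Gene lists were set beside these neighbours as counts, against the 16.6% of all genes. The lists were chosen with earlier results of these data known. Among neural transcription factors 28 of the 60 listed genes with a peak were neighbours of an isolated peak (46.7%), and among synaptic and axonal adhesion genes 25 of 46 (54.3%). The count was 10 of 24 for RNA-binding regulators (41.7%), 3 of 5 for hypothalamic and neuroendocrine genes (60.0%) and 7 of 31 for neuronal channels and receptors (22.6%). It was 5 of 15 for TH response genes (33.3%), 3 of 13 for TH receptors, transport and metabolism (23.1%) and 2 of 9 for DNA methylation genes (22.2%). Of the lists for other cells of the tissue, no listed gene of microglia or of oligodendrocytes had an entry, and the 1 vessel gene that did was not a neighbour.

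Genes of several lists lay beside wide gaps, and a wide gap can hold more peaks. The widest gap beside a gene had a median of 900 kb for adhesion genes, 480 kb for RNA-binding regulators and 458 kb for neural transcription factors, against 194 kb for all genes. Among all genes, the share beside an isolated peak was 4.30% with a widest gap of up to 100 kb, 13.4% at 100 to 400 kb, 28.6% at 400 to 1000 kb and 47.7% beyond. Neural transcription factors with a gap of 400 to 1000 kb were neighbours in 11 of 25 cases (44.0%), and adhesion genes in 12 of 21 (57.1%), against that 28.6%. Beyond 1000 kb the counts were 8 of 11 and 10 of 17 (58.8%), against 47.7%. In these 2 bins channel and receptor genes were lower, with 2 of 12 (16.7%) and 1 of 3. Genes of TH receptors, transport and metabolism had 0 of 4 and 0 of 1. RNA-binding regulators had 7 of 10 and 2 of 3, TH response genes 2 of 5 and 2 of 2, hypothalamic genes 1 of 1 in each and DNA methylation genes 0 of 1 at 400 to 1000 kb. At 100 to 400 kb and up to 100 kb, channel and receptor genes had 3 of 11 (27.3%) and 1 of 4, above all genes. The TH receptor list had 2 of 5 and 0 of 2, and RNA-binding regulators 0 of 5 and 1 of 6. Neural transcription factors had 6 of 17 and 2 of 5, and adhesion genes 2 of 7 and 1 of 1. TH response genes had 1 of 4 and 0 of 3, hypothalamic genes 1 of 2 and 0 of 1, and DNA methylation genes 1 of 4 and 1 of 3. Only 2 of these bins held 20 or more listed genes, and no test of a list was run. Some genes had no measured gap and are in no bin, so the bins can add up to fewer genes than a list holds.

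**Figure D5:**
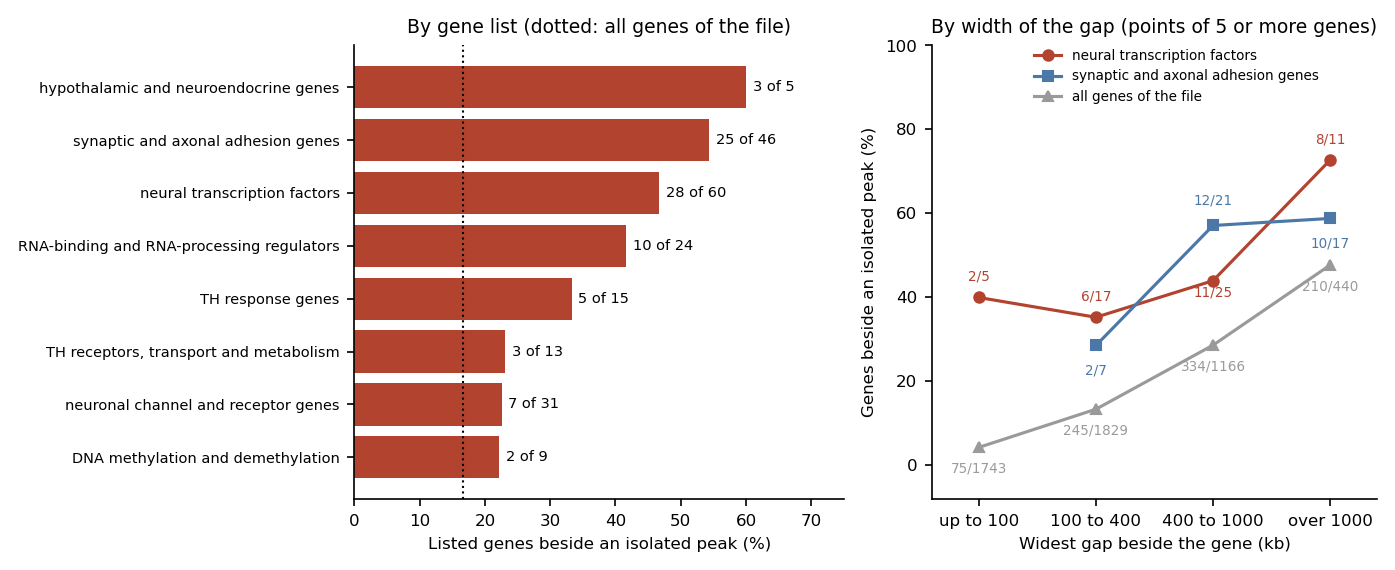
Left, share of the genes of each list with a peak (x axis, %) that neighbour an isolated peak at any distance. The dotted line is the 16.6% of all genes. Right, the same share (y axis) by width of the widest gap beside the gene (x axis, kb) for neural transcription factors, adhesion genes and all genes, where all genes climb between 4.30% and 47.7%.

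High folds were few among the isolated peaks beside a listed gene. Of the 101 such peaks, 10 had a fold of at least 5 (9.90%, 4.85 to 17.5%), against 88 of the 476 isolated peaks whose neighbours were on no list (18.5%, 15.1 to 22.3%). On chromosomes alone these shares were 10.5% (5.16 to 18.5%) and 16.8% (13.4 to 20.6%), and the intervals overlap either way. Overlap does not show that the shares are alike, and no test was run. The medians differed little, at folds of 4.02 and 4.06, 18 and 20 fragments, and backgrounds of 3.69 and 4.30 fragments. Beside neural transcription factors 1 of 35 isolated peaks reached a fold of 5.

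TH response genes are those whose transcription is known to follow the hormone in tadpoles. A peak on chromosome 6 (129577600 to 129577874), at a fold of 6.11 (3.70 to 9.58) from 17 fragments, was 583 kb before the start of the proto-oncogene myc, though the end of nsmce2, a SUMO ligase gene, was at 6.46 kb. A second peak, on chromosome 6 (128823490 to 128823809), lay 167 kb past the end of myc with a fold of 3.22 (2.07 to 4.80). Beside dot1l, the H3K79 methyltransferase, a peak on chromosome 1 (83597721 to 83597931) had a fold of 3.75 (2.08 to 6.34) from 12 fragments, 53.7 kb past the gene end and nearer to the start of oaz1 at 23.3 kb. The repressor gene bcl6 had a peak 154 kb before its start on chromosome 5 (100454320 to 100454895), at a fold of 3.71. A peak with a fold of 5.85 (3.43 to 9.40) beside sox4, also on this list, is described with the neural transcription factors. This peak and the first myc peak were the 2 of 6 isolated peaks beside TH response genes with a fold of at least 5.

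Genes of TH receptors, transport and metabolism had 3 isolated peaks beside them, at 3 of the 13 genes with an entry (23.1%, against 16.6% of all genes). The coactivator gene ncoa3 had one 183 kb past its end on chromosome 10 (28713767 to 28714018), at a fold of 4.05 (2.49 to 6.28), and prex1 was nearer at 122 kb. The RXR gene rxra, whose product is the TR's DNA-binding partner, had one 79.6 kb before its start on scaffold KV460362.1 (527990 to 528412), at a fold of 3.58 (2.20 to 5.56), and the start of brd3, a bromodomain reader, lay on the other side at 55.5 kb. The coactivator gene ncoa1 had one at 333 kb with a fold of 3.36. No gene of this list had an isolated peak with a fold of 5.

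Genes of DNA methylation had 2 isolated peaks. One lay on chromosome 3 (126669808 to 126670074) between the starts of dnmt1, the maintenance methyltransferase, at 72.0 kb and mrpl4, a mitochondrial ribosomal protein, at 68.6 kb. Its fold of 5.33 (3.07 to 8.70) came from 14 fragments over a background of 1.81. The other, on chromosome 3 (108664330 to 108664728), lay 33.4 kb before the start of mat2a, an S-adenosylmethionine synthetase gene, with a fold of 4.31 (2.83 to 6.33) and 24 fragments.

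Neural transcription factors had 35 isolated peaks beside them, with a median fold of 4.05. The SOX-family gene sox11, active in neuronal differentiation, had a peak 2.84 kb past its end on chromosome 5 (132105319 to 132106046), at a fold of 4.89 (3.11 to 7.36), and another peak of the list lay 3.36 kb away. The zinc finger gene zic2 had one 6.41 kb past its end on chromosome 2 (117335290 to 117335552), at a fold of 4.73 (2.82 to 7.51), and its other neighbour pcca was adjacent in the reference order. The orphan nuclear receptor gene nr2f1 had one 126 kb before its start on chromosome 1 (171449837 to 171450065), also at 4.73, in an interval with no other coding gene in the reference order. A peak at a fold of 4.40 lay 20.3 kb before mef2d, an activity-regulated factor, on chromosome 8 (111723524 to 111723803), and was nearer to the end of iqgap3, at 12.1 kb.

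The only isolated peak beside a neural transcription factor with a fold of at least 5 was on chromosome 6 (31199714 to 31200091), at 5.85 (3.43 to 9.40), 720 kb past the end of sox4 and 113 kb before the start of nrsn1, a neuronal membrane protein. The homeobox gene isl1, which is on the neural and the hypothalamic list, had isolated peaks on both sides, with folds of 3.76 at 220 kb and 4.62 at 265 kb. The peak at 265 kb was nearer to the end of parp8, at 36.7 kb. Of the hypothalamic list, adcyap1, encoding the neuropeptide PACAP, had a peak 49.7 kb past its end on chromosome 6 (92762787 to 92763193), at a fold of 4.34 (2.50 to 7.08), and its other neighbour smchd1 was adjacent in the reference order. The Wnt effector gene tcf7l2 had one 88.1 kb past its end on scaffold KV460401.1 (206071 to 206306), at a fold of 4.05 (2.29 to 6.72).

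Some listed genes with no entry of their own were inside these intervals, at shares that differed between lists. By the reference order, 15 of the 55 neural transcription factors without an entry (27.3%) stood between the neighbours of an isolated peak, against 1760 of 16971 coding genes without one (10.4%, 9.92 to 10.8%). They included sox3, sox21, pou3f2, pou4f2, atoh1, lhx9, nr4a2 and otx1. For hypothalamic genes it was 8 of 38 (21.1%), among them kiss1, which encodes a peptide that controls reproduction, and the homeobox genes rax, six3 and nkx2-2. It was 10 of 39 adhesion genes (25.6%), 7 of 26 channels and receptors (26.9%) and 3 of 13 TH response genes (23.1%). For other cells of the tissue it was 2 of 8 microglial genes (25.0%, ptprc and laptm5) and 3 of 19 vessel genes (15.8%, cdh5, tie1 and erg). It was 0 of 15 oligodendrocyte genes, 0 of 12 DNA methylation genes, 0 of 9 genes of TH receptors, transport and metabolism, and 0 of 5 RNA-binding regulators. Several of these genes are neighbours of each other and share an interval. A wide interval can hold more genes, and these shares were not split by its width. A gene without an entry may also be in the list under a name that could not be used.

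Adhesion genes had 31 isolated peaks beside them, and 10 of these were within 200 kb. The protocadherin gene pcdh7 had the one with the highest fold, 6.35 (4.04 to 9.56), on chromosome 1 (25454708 to 25454919), 85.8 kb past its end. The gene of the list on the other side, adgra3, was 3044 kb away. In the reference order 19 coding genes stood between adgra3 and pcdh7. The contactin-associated gene cntnap5 had a peak 20.9 kb past its end on scaffold KV460370.1 (564178 to 564472), at a fold of 4.63. Others were 23.3 kb before dlg2, a postsynaptic scaffold (chromosome 2, 167680666 to 167680909, fold 4.53), 177 kb before dcc, a netrin receptor (chromosome 1, 191242042 to 191242439, fold 3.98), and 4.64 kb past the end of ephb1, an ephrin receptor (chromosome 5, 126956209 to 126956454, fold 3.82).

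Channel and receptor genes had 10 isolated peaks, with a median fold of 4.63. The AMPA receptor gene gria1 had isolated peaks on both sides. Of those within 200 kb, one lay 96.3 kb before its start on chromosome 3 (3920332 to 3920909), at a fold of 4.91 (3.16 to 7.32), and one 5.33 kb past its end (3648651 to 3648863), at a fold of 3.79 (2.39 to 5.76). Farther out, 279 kb before the start, one had a fold of 5.65 (3.63 to 8.43). The NMDA receptor gene grin2b had a peak 10.8 kb before its start on chromosome 4 (104339543 to 104339923), at a fold of 4.84 (2.93 to 7.58). Other peaks were 163 kb before the potassium channel gene kcnq3 (chromosome 6, 126914143 to 126914471, fold 4.53) and 41.1 kb past the end of gria2, another AMPA receptor gene (chromosome 1, 44051067 to 44051532, fold 3.89). The kcnq3 peak was nearer to the end of sqle, at 34.0 kb.

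RNA-binding regulators had 14 isolated peaks, with a median fold of 4.25. The splicing factor gene celf4 had one 117 kb before its start on chromosome 1 (194146146 to 194146398), at a fold of 5.59 (3.22 to 9.12) from 14 fragments over 1.69. The neuronal RNA-stabilising gene elavl4 had isolated peaks on both sides, 13.7 kb past its end (chromosome 4, 85603506 to 85603893, fold 4.67, 11 fragments over the lowest background of the list) and 539 kb before its start (fold 4.44). The splicing factor gene celf2 did too, 11.8 kb past its end (chromosome 3, 73023996 to 73024269, fold 4.57) and 131 kb before its start (fold 4.02). Peaks with a fold of 4.05 each lay 15 kb before mbnl1, a splicing factor (chromosome 5, 106177412 to 106177648), and 36.4 kb before cpeb2, a translational regulator (chromosome 1, 17209650 to 17209910).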

How the data were processed

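TR ChIP and input libraries, 1 of each, were grouped by the antibody label. The data were the deposited peak list. The submitters' processing notes name MACS2 2.2.6, BWA 0.7.17, fastp 0.20.1, Picard 2.18.2, SAMtools 1.13, FastQC 0.11.9 and deepTools 3.5.1 without saying what each was used for. Build, peak threshold and library depths are not given in the sources used here. Coordinates follow the list. The deposited enrichment is a linear fold ratio. The authors deposited significance as −log10 p-value, unadjusted and adjusted, and the deposited score is 10 times the adjusted value, rounded down.

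Computed here, with Python 3.11.15, pandas 2.3.3, NumPy 2.4.6 and SciPy 1.17.1, were summits, spacing, the nearest gene edge on each side, and fragments. Taking the fold as (fragments + 1) / (background + 1) and the p-value as a Poisson upper tail, whole fragments solved all 6302 peaks within 0.0001 in −log10 p (largest misfit 2.48e-05); this was tested on simulated data. Fold intervals are exact 95% Poisson intervals of the ChIP fragments. They cover counting error only, not that of the background, and belong to peaks selected for being high. PCR copies are not independent molecules. Shares have exact (Clopper-Pearson) binomial intervals, which take peaks as independent.

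Deposited gene names were kept where their description supported them (4949 of 5285 genes). The reference table (RefSeq, assembly UCB_Xtro_10.0) gave names and gene order only. Neighbours counted as matched in it where the interval length was within 0.667 to 1.5 times that of the list. The widest gap of a gene is the longer of the 2 gaps beside it.

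Named peaks were the 12 with the highest fold, the 5 widest, the 5 farthest from a gene on chromosomes, the 5 with the highest fold within 200 kb of a gene of each of 11 lists, and the 3 on each side of the 50 kb limit. Members and lists were chosen with earlier results of these data known. Gap orientation, gap width, reference order, interval counts and other peaks named were added after seeing the data. Alternatives changed the isolation distance, the peak set, the point and gene end used, and the gene names. Some results that the rule for named peaks would give are not reported here.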

Additional observations from a re-analysis of the deposited data

How the results depend on the processing

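The summary values were recomputed under 13 alternatives, of which 2 were chosen after seeing the data. Values that left their own 95% interval, or counts that moved by over 1.5 times, were the following; the others stayed within these limits. With 25 kb as the isolation distance (726 peaks), 27.1% had another peak within 50 kb, against 19.2%; with 100 kb (593 peaks) no value moved. With no peak of any class within 50 kb, the median distance to a gene was 143 kb, against 93.2 kb, and that share is 0 by construction. Among peaks with a −log10 adjusted p of at least 3 in the authors' deposited table, the median fold was 4.27, fragments 21 and the share with a fold of at least 5 22.4%. Among the stronger 50% of all peaks by that value, 235 were isolated, with a median fold of 4.91, 25 fragments, 46.0% with a fold of at least 5, a gene at 74.0 kb, another peak within 50 kb for 23.4% and 19 beside a listed gene. The construction of these 2 settings removes weak peaks. On chromosomes alone 15.7% had a fold of at least 5. To the nearest TSS the median was 125 kb. Within 50 kb of a gene edge a start faced 36.7%, against 42.3% of all 577. Using only the nearest gene left 60 peaks beside a listed gene, against 101. No paired analysis was possible because each group has 1 library. A typical fold rests on 20 fragments, so folds near the median cannot be ordered, and without replicates no peak has a repeat measurement.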

Other observations

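Isolated peaks on both sides were found for 55 genes, and 173 genes were a neighbour of 2 or more isolated peaks. Among them, chosen after their values were seen, was nr4a1, an orphan nuclear receptor gene that responds early to many signals. A peak on chromosome 2 (131988887 to 131989617) lay 27.2 kb before its start with a fold of 8.11 (6.01 to 10.7) from 47 fragments. One 309 kb past its end had a fold of 2.31 (1.51 to 3.39), so the intervals of the pair do not overlap. That second peak was nearer to the end of ccnt1, at 65.6 kb. The proto-oncogene mycn had 4 isolated peaks, with folds of 3.12 and 4.67 before its start and 3.12 and 3.24 past its end. The Krüppel-like factor gene klf6 had folds of 4.39 and 4.05 on its 2 sides, at 283 and 377 kb.

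Also neighbours of an isolated peak were 4 microRNA genes of the list, picked after their values were seen. The peak before mir-129-1 on chromosome 4 (3063736 to 3064443) had a fold of 6.42 (4.57 to 8.79) from 37 fragments and lay 16.8 kb from its start and 11.9 kb from the end of ttc17. Peaks of 5.16 (3.70 to 7.0) and 4.40 (2.90 to 6.41) lay 36.2 kb past the end of mir-125b-2 and 34.6 kb before the start of mir-212, both on chromosome 2. The peak beside mir-148a, at 767 kb, had a fold of 3.84 (2.33 to 6.02) and was nearer to the end of ccdc126, at 332 kb.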
